A study of Mus musculus with 6 samples.

Results

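Peptidases of cell surfaces and of the cell interior trim, activate or destroy peptide hormones. In pancreatic islets 10 mouse genes of such enzyme families were followed, of which Cpxm2 encodes a protein not known to cut peptides. The genes were Anpep, Dpp4, Enpep, Mme, Ace, Ece1, Npepps, Lnpep, Ide and Cpxm2. They were chosen from their known function or enzyme family and with the difference between arrays labelled knockout and control arrays already known. Every value of that difference for these genes is therefore given as a description. On the array 9 of the 10 genes had probe sets carrying their symbol alone, 23 probe sets in all out of 45037. Lnpep, the insulin-regulated aminopeptidase of glucose transporter vesicles, had 0 probe sets named for it here and was not analysed. The group is mixed in location: Anpep, Dpp4, Enpep, Mme, Ace and Ece1 encode membrane-anchored enzymes, while the products of Npepps and Ide are mainly cytosolic and that of Cpxm2 is secreted.

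The 3 arrays labelled knockout came from mice with both floxed Ppard alleles and a Cre transgene under the Pdx1 promoter, which is active across the developing pancreas. The 3 control arrays came from littermates with the floxed alleles and no Cre. All 6 mice were 8 weeks old, on a mixed SV 129/C57BL/6 background, and each array is a different animal. Ppard encodes PPARβ, a fatty-acid-activated nuclear receptor. Because 0 arrays came from mice with Cre and intact Ppard, deletion and transgene cannot be told apart, and because islets are a mixture, fewer cells of a type and less RNA per cell cannot be told apart either. The labels say beta cells, while the protocol isolates whole islets, and the alpha cell hormone gene Gcg stood at 13.75 to 13.82 log2 in arrays labelled knockout and 13.93 to 13.98 in controls.

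The brighter Ppard probe set read 8.01, 8.20 and 7.70 in the arrays labelled knockout and 7.75, 7.56 and 7.12 in controls. The other read 5.97, 5.84 and 5.73 against 5.57, 5.47 and 5.47. The targeted transcript was thus not lower in the arrays labelled knockout. The deleted exons are not given, probes lying beyond them cannot check a deletion, and the genotypes rest on the labels. Array medians lay between 5.39 and 5.49 log2 and arrays correlated pairwise at r = 0.978 to 0.993. The mean of 16 measured acinar markers, mostly genes of secreted digestive enzymes, was 9.17, 6.12 and 6.22 in arrays labelled knockout 1 to 3 and 7.41, 11.68 and 11.60 in controls 1 to 3. Controls 2 and 3 thus stood apart in exocrine RNA.

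Most of these enzymes are zinc metallopeptidases. The aminopeptidases encoded by Anpep, Enpep and Npepps take residues from the amino end of peptides, Dpp4 is a serine peptidase that removes a dipeptide and so inactivates incretin hormones, and Mme (neprilysin), Ace and Ece1 cut inside peptides or near their carboxyl end. In the angiotensin cascade Ace makes angiotensin II, Enpep converts it to angiotensin III, and Anpep shortens that peptide further. Ide degrades insulin, amylin and glucagon.

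The start-site regions of the pair of genes with the largest differences, Anpep and Cpxm2, are shown first because PPARβ, whose gene was targeted, is a DNA-binding factor. The windows are the 250 bases before each start (RefSeq, GRCm38.p6), Anpep at chr7:79848211-79848460 and Cpxm2 at chr7:132154742-132154991, both on the minus strand, written 5′ to 3′ with every GGGCGG or its reverse complement CCGCCC (the GC box) in capitals.
Anpep: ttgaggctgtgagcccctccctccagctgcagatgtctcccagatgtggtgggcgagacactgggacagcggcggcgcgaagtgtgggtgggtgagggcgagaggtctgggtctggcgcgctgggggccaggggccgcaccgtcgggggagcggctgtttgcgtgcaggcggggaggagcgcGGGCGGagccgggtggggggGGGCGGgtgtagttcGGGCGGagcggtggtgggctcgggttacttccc
Cpxm2: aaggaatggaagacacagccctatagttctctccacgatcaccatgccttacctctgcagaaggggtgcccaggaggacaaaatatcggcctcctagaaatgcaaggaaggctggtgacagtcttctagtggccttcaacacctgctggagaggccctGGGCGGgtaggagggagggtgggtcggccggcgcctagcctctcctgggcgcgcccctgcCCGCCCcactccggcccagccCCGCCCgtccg
Each window held 3 GC boxes, and its share of G and C was 72.8% for Anpep and 64.0% for Cpxm2, against a median of 52.4% over 32851 windows in the table, where a gene may have several windows. A GC box was present in 32.7% of all windows and in 10 of the 16 windows of the 10 genes. Some windows of the same gene overlap, and by gene a GC box was present in 7 of the 10, with no share by gene computed over all genes. The PPAR element searched was AGGTCANAGGTCA on either strand. It occurred in 0.0335% of all windows and in 0 of the 16. Its single repeat AGGTCA, on either strand and including any within the longer element, was in 14.0% of all windows and in 2 of the 16, those of Ide and of the downstream Ace start. These letter matches describe the windows only.

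Anpep encodes aminopeptidase N, the brush-border enzyme of intestine, kidney and other epithelia that removes neutral residues from small peptides such as enkephalins. Its 1 probe set read 6.80, 6.45 and 6.55 log2 in arrays labelled knockout 1 to 3, against 8.83, 7.87 and 8.53 in controls 1 to 3. The groups did not overlap, and the lowest control stood above the highest array labelled knockout by more than 1 log2 unit. The means were 6.60 ± 0.18 and 8.41 ± 0.49 (SD, n = 3 each), a difference of -1.81 ± 0.25 (SE), or 3.50-fold lower. The mean stood at percentile 63.1 of all probe sets in arrays labelled knockout and at percentile 81.7 in controls, so the signal was not at the bottom of the range in either group.

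Cpxm2 encodes carboxypeptidase X2, a member of the metallocarboxypeptidase family that lacks residues the active enzymes need and is not known to cut peptides. The brighter of its 2 probe sets read 5.83, 5.75 and 6.03 in arrays labelled knockout and 3.50, 3.72 and 3.57 in controls. All 3 arrays labelled knockout were above all controls, with a spread within either group far smaller than the gap. The means were 5.87 ± 0.14 and 3.60 ± 0.11 (SD, n = 3 each), a difference of 2.27 ± 0.12 (SE), or 4.83-fold. The control mean stood at percentile 25.3 of all probe sets, where RMA gives no call of detection and a fold depends on the background. The dimmer probe set read 4.20, 4.56 and 4.05 in arrays labelled knockout and 3.91, 4.0 and 3.82 in controls. It also separated the groups, but its difference was 0.36 ± 0.15 (SE), so the probe sets disagree in size, and the mean over both was 1.32.

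**Figure D1:**
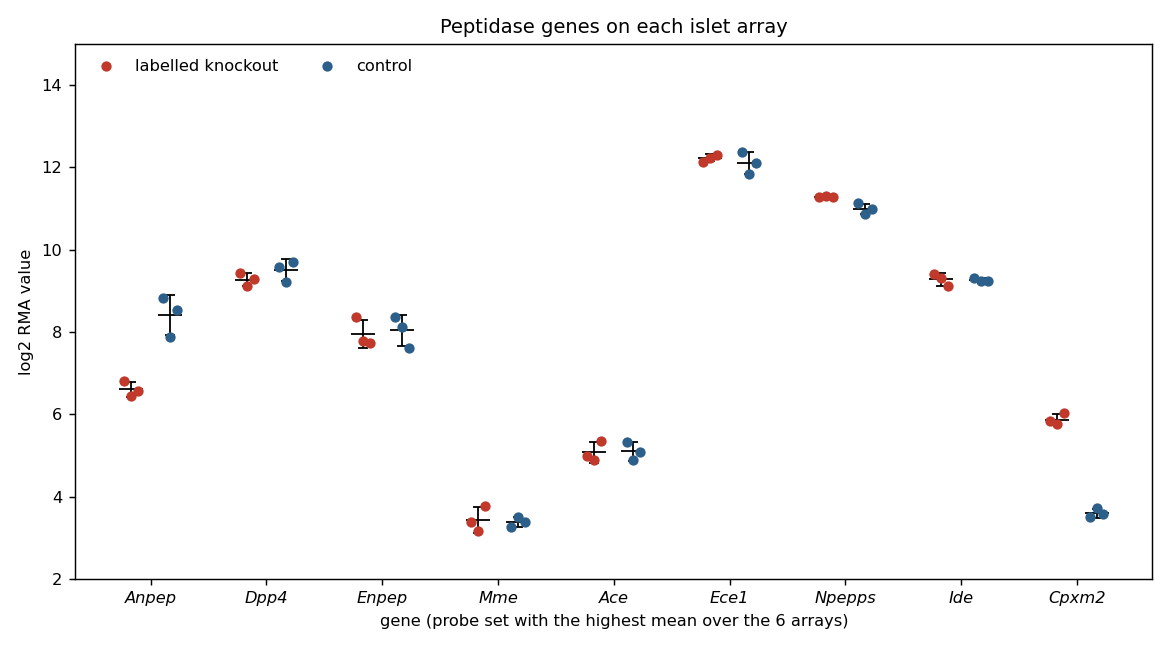
Log2 RMA values of the 9 measured peptidase genes, 1 probe set per gene, with the 3 arrays labelled knockout left of the 3 control arrays. Bars are means ± SD. Anpep (6.60 against 8.41) and Cpxm2 (5.87 against 3.60) separate by group, Npepps separates with means 0.29 apart, and the other genes overlap.

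Of the 23 probe sets, 2 passed limma's adjusted p of 0.05, that of Anpep lower and 1 of Cpxm2 higher, and 21 did not. Over all probe sets 0.897% passed, 0.184% lower and 0.713% higher. Groups did not overlap for 4 of the 23 (those of Anpep and Cpxm2, and the brightest of Npepps), against 19.0% of all probe sets. Since the genes were picked with this comparison known, the counts carry no weight as a test. The median difference was -0.01 over the 23 and -0.02 over all probe sets, and the median absolute difference was 0.12 against 0.15. When single arrays were left out, the Anpep difference lay between -2.08 and -1.60, and it passed in 2 of 6 fits, failing without any of the arrays labelled knockout or without control 3. The Cpxm2 difference lay between 2.19 and 2.33 and passed in 6 of 6.

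**Figure D2:**
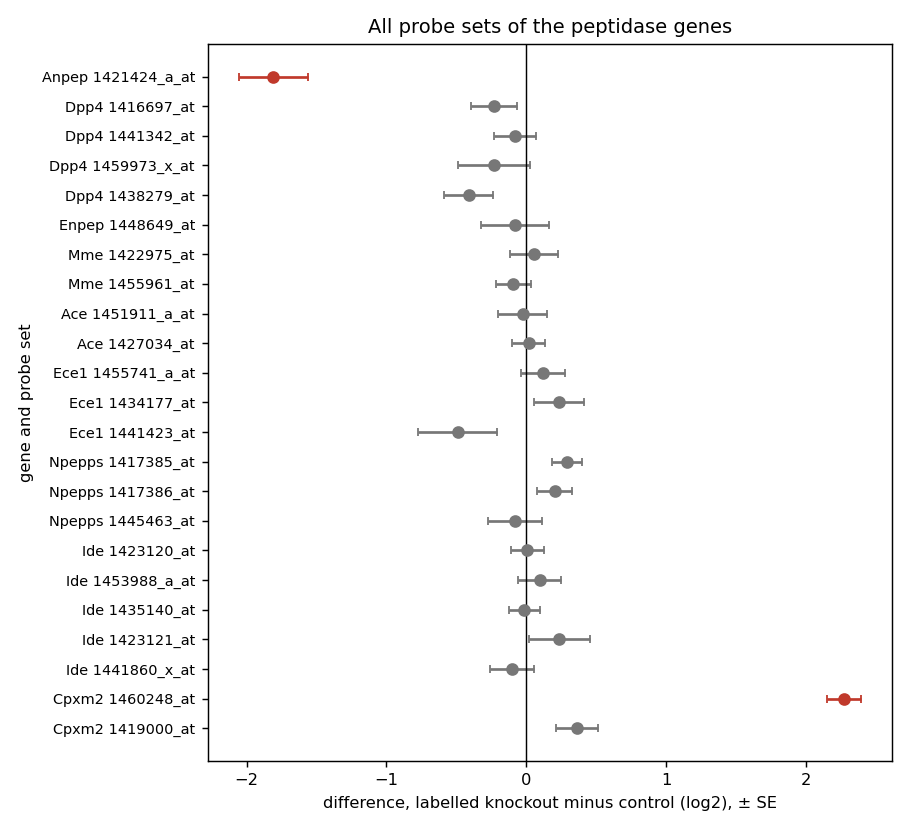
Difference between arrays labelled knockout and controls, log2 with its SE, for all 23 probe sets. Red marks the pair past adjusted p 0.05, Anpep at -1.81 and the brighter Cpxm2 probe set at 2.27, and the other 21 lie between -0.49 and 0.36.

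Dpp4 encodes dipeptidyl peptidase 4, the target of the gliptin drugs used in diabetes. Its brightest probe set read 9.42, 9.11 and 9.28 in arrays labelled knockout and 9.59, 9.21 and 9.71 in controls. The groups overlapped, and the difference was -0.23 ± 0.16 (SE). All 4 Dpp4 probe sets had lower means in arrays labelled knockout, from -0.41 to -0.08, also after median centring or a further quantile normalization, and 0 of 4 passed.

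Enpep, aminopeptidase A, overlapped fully between groups. It read 8.35, 7.79 and 7.72 in arrays labelled knockout and 8.36, 8.13 and 7.62 in controls, a difference of -0.08 ± 0.24 (SE). The highest array of each group was its replicate 1, at nearly equal values. Npepps encodes the puromycin-sensitive aminopeptidase. Its brightest probe set read 11.28, 11.29 and 11.27 in arrays labelled knockout and 11.13, 10.87 and 10.98 in controls. The groups did not overlap, yet the difference of 0.29 ± 0.11 (SE) did not pass. A further Npepps probe set differed by 0.20 ± 0.13 and the dimmest by -0.08 ± 0.19.

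Ece1 makes active endothelins from their precursors. Its brightest probe set read 12.14, 12.24 and 12.31 in arrays labelled knockout and 12.38, 11.84 and 12.12 in controls. These means stood at percentile 99.1 and percentile 99.0 of all probe sets. The difference was 0.12 ± 0.16 (SE), and the controls spanned the arrays labelled knockout. The next probe set differed by 0.24 ± 0.18, while the dimmest differed the other way, by -0.49 ± 0.28. That dimmest probe set read 6.15, 6.25 and 6.00 in arrays labelled knockout and 5.96, 6.83 and 7.09 in controls. Its high values were those of controls 2 and 3, the acinar-rich arrays, while knockout 1, with an acinar mean of 9.17, read 6.15. With the acinar marker mean as a covariate, a fit chosen after seeing the data, its difference was -0.01 ± 0.27. In that fit the other Ece1 probe sets moved as well, the brightest to -0.12 ± 0.17 and the next to -0.004 ± 0.21. The part of acinar RNA in the differences of these probe sets was not tested.

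Mme had a low signal, and Ace stood near the middle of the array. The brighter Mme probe set read 3.37, 3.15 and 3.78 in arrays labelled knockout and 3.26, 3.49 and 3.39 in controls, at percentile 23.8 and percentile 22.4 of all probe sets. The brighter Ace probe set read 4.98, 4.88 and 5.36 in arrays labelled knockout and 5.33, 4.88 and 5.09 in controls, at percentile 45.9 and percentile 45.6. Groups overlapped for both, with differences of 0.05 ± 0.17 for Mme and -0.02 ± 0.18 for Ace (SE). With no detection call these values do not show whether either transcript was present.

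Ide, which encodes the insulin-degrading enzyme, had 5 probe sets, and the groups overlapped on each. The brightest read 9.41, 9.32 and 9.11 in arrays labelled knockout and 9.32, 9.25 and 9.25 in controls, a difference of 0.01 ± 0.12 (SE). The others differed by -0.10 to 0.24, the largest on a probe set whose controls alone spread over 5.88, 5.46 and 5.0.

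**Figure D3:**
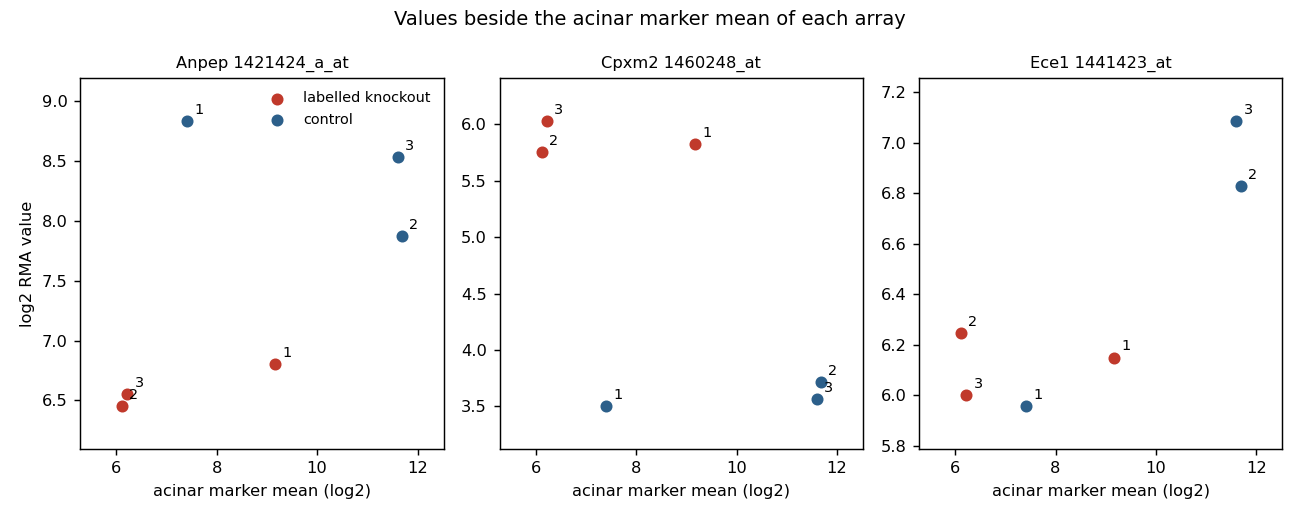
Log2 RMA value (vertical) against the mean log2 value of 16 acinar markers (horizontal) on each array, numbered by replicate. Control 1, low in acinar RNA, has the highest Anpep value (8.83). Cpxm2 is low in control 1 and in the acinar-rich controls 2 and 3. No array labelled knockout reaches the acinar level of controls 2 and 3. The dimmest Ece1 probe set is high in controls 2 and 3 only.

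The acinar marker mean overlapped between the groups, with controls 2 and 3 apart from the other 4 arrays, and is set beside the main pair of genes. Control 1, whose acinar mean of 7.41 lay within the range of the arrays labelled knockout, had the highest Anpep value of all arrays, 8.83. With control 1 as the sole control array the Anpep difference was -2.23 ± 0.19 (SE), and with the acinar covariate -2.01 ± 0.33, but it then no longer passed. Cpxm2 differed by 2.37 ± 0.17 and 2.32 ± 0.17 in those fits and passed in both. In the first of these fits the spread comes from the arrays labelled knockout and is taken to hold for the lone control, and both fits were chosen after seeing the data.

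Other cell type lists moved with the groups as well. The mean of 5 delta and PP cell markers was 10.03 to 10.12 in arrays labelled knockout and 10.74 to 10.92 in controls, with 5 of 5 lower. The mean of 4 alpha cell markers was 10.78 to 10.93 and 11.25 to 11.39, with 4 of 4 lower. That of 8 beta cell markers was 11.37 to 11.7152 and 11.7215 to 12.04, with 6 of 8 lower, so its groups barely separated. That of 11 immune markers was 5.54 to 5.80 and 5.27 to 5.44, with 8 of 11 higher. Each of these lists separated the groups (exact permutation p = 0.1, two-sided, the smallest that 3 against 3 allows, adjusted p = 0.2 over 8 lists). The acinar, duct, endothelial and fibroblast lists overlapped between groups (exact permutation p = 0.2 to 1). The part of these cell types in the Anpep and Cpxm2 differences was not tested.

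The genes nearest to Anpep in profile, out of 18193 genes, were taken by the root mean square difference over the 6 arrays after each gene's own mean was subtracted. They were Nt5dc2 (0.14 log2), Mlxipl (0.15), which encodes the glucose-responsive factor ChREBP, Emid1 (0.17) and Pappa2 (0.26), a protease of IGF-binding proteins. Emid1 read 7.49, 7.29 and 7.68 in arrays labelled knockout and 9.78, 8.80 and 9.16 in controls, and like Anpep was highest in control 1 and lowest among controls in control 2. The genes nearest to Cpxm2 were the guanylate-binding protein gene Gbp8 (0.14), the cytokine feedback inhibitor Socs2 (0.14), Pros1 (0.16), which encodes protein S of the anticoagulant system, and the actin-binding Palld (0.17). The distance is set mostly by the group difference, so these lists describe likeness only.

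Related peptidases were examined as a list. Of 59 listed relatives of the same enzyme families or substrates, 52 were measured, and 0 rose and 0 fell at limma's adjusted p of 0.05, where 1.10% of all genes passed, so a count of 0 is near the background. At an unadjusted limma p under 0.05 there were 14 of 52, a larger share than the 14.0% of all genes (2538 of 18193). The list was chosen with earlier results of these data known, so that count carries no weight as a test. The median difference was 0.06 over the 52 genes and 0.00 over all genes, with median absolute differences of 0.14 and 0.14. With a trended robust prior 3 passed, namely Fap, Cpe and Cpd.

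Among relatives of Dpp4, the fibroblast activation protein gene Fap read 2.63, 3.39 and 3.31 in arrays labelled knockout and 4.40, 4.75 and 4.09 in controls. These groups did not overlap, at a low signal, and the difference of -1.30 ± 0.25 did not pass (adjusted p = 0.0846, limma). Dpp3, a cytosolic dipeptidyl peptidase, differed by 0.46 ± 0.12 (adjusted p = 0.175). Among carboxypeptidases, Cpd of the late Golgi differed by 0.54 ± 0.13 (adjusted p = 0.148) and Cpe, which trims prohormones in secretory granules, by -0.31 ± 0.10 (adjusted p = 0.255).

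The remaining relatives with the smallest p in their lists differed less or with more spread. The M1 aminopeptidase genes Rnpepl1 and Rnpep differed by -0.20 ± 0.12 and 0.17 ± 0.16, and the neprilysin relatives Phex and Kel by -0.21 ± 0.12 and -0.14 ± 0.12. Pitrm1 and Nln, of the insulinase and oligopeptidase list, differed by 0.17 ± 0.10 and 0.14 ± 0.11, and the shedding proteases Adam17 and Adam10 by 0.40 ± 0.13 and 0.26 ± 0.10. Ctsd differed by -0.08 ± 0.10. Adjusted p for these 9 genes lay between 0.253 and 0.810. Klk1, a tissue kallikrein gene, read 8.46, 5.62 and 5.54 in arrays labelled knockout and 6.75, 11.70 and 11.74 in controls. It was highest in controls 2 and 3, as the acinar markers were, and its groups overlapped.

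**Figure D4:**
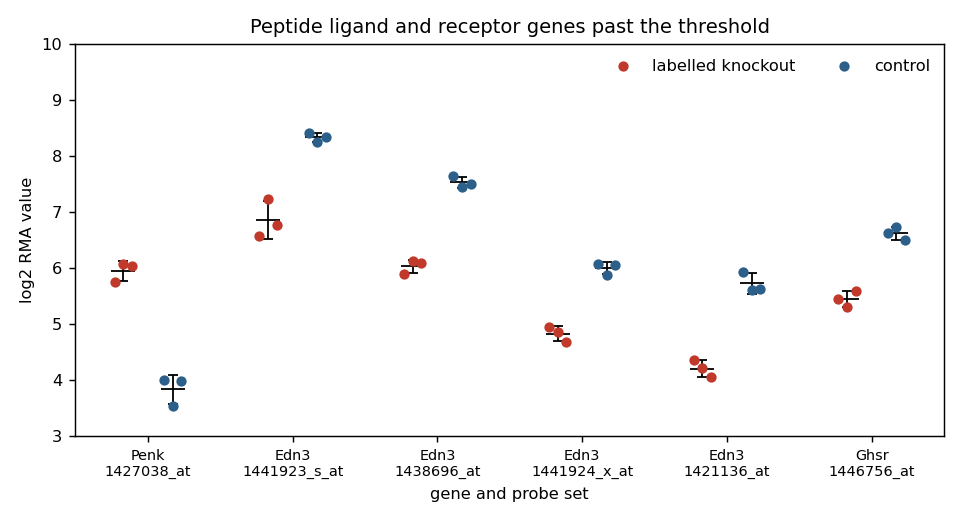
Log2 RMA values of the peptide ligand and receptor genes past adjusted p 0.05, with all their probe sets, the 3 arrays labelled knockout left of the 3 controls. Bars are means ± SD. Penk is higher (5.75 to 6.08 against 3.54 to 4.0), and Ghsr and all 4 Edn3 probe sets are lower in arrays labelled knockout.

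Genes for peptides that such enzymes cut, and for their receptors, were examined as a list of 87, of which 83 were measured. At limma's adjusted p of 0.05, 1 rose, 2 fell and 80 did not pass, against 1.10% of all genes, and the median difference was -0.02 over the list and 0.00 over all genes. Penk, the precursor of the enkephalins that aminopeptidase N and neprilysin degrade, rose. It read 5.75, 6.08 and 6.04 in arrays labelled knockout and 4.0, 3.54 and 3.99 in controls. The difference was 2.11 ± 0.17 (SE, adjusted p = 0.0035) and passed with any 1 array left out. The control mean stood at percentile 28.7 of all probe sets, so, as for Cpxm2, the size of the difference depends on the background. With control 1 as the sole control it was 1.96 (adjusted p = 0.0627).

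Edn3, which encodes the precursor of endothelin 3, a substrate class of Ece1 and neprilysin, fell. The brightest of its 4 probe sets read 6.57, 7.23 and 6.77 in arrays labelled knockout and 8.42, 8.26 and 8.34 in controls. The groups did not overlap on any of the 4, the differences lay between -1.52 and -1.17, and 4 of 4 passed. The brightest differed by -1.48 ± 0.18 (SE, adjusted p = 0.0177). The brightest lost its call when knockout 1, knockout 3, control 2 or control 3 was left out (limma, adjusted p up to 0.0955). It also lost it once the acinar mean was a covariate (-1.69, limma, adjusted p = 0.0658). With control 1 as the sole control its difference was -1.56. The dimmer Edn3 probe sets, with adjusted p of 0.0035 to 0.0092 in the main limma fit, were not followed in these alternatives.

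Ghsr, the receptor of ghrelin and also a marker in the delta cell list above, fell. It read 5.45, 5.31 and 5.59 in arrays labelled knockout and 6.62, 6.74 and 6.51 in controls, with no overlap and a difference of -1.17 ± 0.12 (SE, adjusted p = 0.0097). The call was lost without knockout 1 (adjusted p = 0.0604), without knockout 2 (adjusted p = 0.0544), once the acinar mean was a covariate (-1.17, adjusted p = 0.103), and with control 1 as the sole control (-1.17, adjusted p = 0.119).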

How the data were processed

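Islet RNA of 6 mice was hybridised to 1-colour Affymetrix arrays. The deposited values are log2 expression per probe set, made by the authors with RMA (background correction, quantile normalization, probe summary), which the submitters' processing notes name without a version. Of 45101 probe sets, 64 manufacturer's controls were left out. Symbols came from the platform annotation (34945 probe sets with a single symbol, 18193 genes), updated through the RefSeq gene table. Several-symbol probe sets named no gene. The brightest probe set, with the highest mean over 6 arrays, stood for a gene.

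Differences were tested two-sided in R 4.3.3 by limma 3.58.1 with lmFit and eBayes, group being the only term, with Benjamini-Hochberg adjustment over 45037 probe sets and a threshold of 0.05. The fit was tested on simulated data. Differences are arrays labelled knockout minus control. The number of arrays limits the precision. The genes and lists were chosen with earlier results of these data known. Beside the 10 genes, the text names list genes past the threshold, otherwise the 2 of each list with the smallest p, and the 4 nearest profiles of each called gene. Scalings, a filter, a prior, a replicate block and leaving out arrays were tried as alternatives.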

Additional observations from a re-analysis of the deposited data

How the results depend on the processing

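Limits first: 3 arrays per group, no detection calls and no scan dates were used, and single arrays moved the number of calls. Probe sets past the threshold numbered 152 to 783 with 1 array left out, 903 with a trended robust prior, 127 with the acinar covariate and 54 with control 1 as the sole control, the last pair chosen after seeing the data, against 404. Same-numbered arrays deviated together at r = -0.05, 0.14 and 0.005, and differently numbered ones at r = -0.13 to 0.10. Deviations from a mean of 3 arrays are not independent, so these values cannot decide whether the numbers pair the mice. With the replicate block 246 probe sets passed. The calls on the brightest Edn3 probe set (limma, adjusted p = 0.0610) and on Ghsr (limma, adjusted p = 0.0582) were lost. A call on Cxcl12 was gained, and those on Anpep, Cpxm2 and Penk held. Of the 23 peptidase probe sets, 1 or 2 passed with 1 array left out, and 1 passed with the acinar covariate, with control 1 alone, and above the median signal, where the Cpxm2 probe sets were not tested. Among related peptidases 3 passed with the trended prior and 0 in every other fit. Among ligands and receptors 6 passed with that prior, 1 to 5 with 1 array left out, 1 with the acinar covariate and 0 with control 1 alone. The cause of these shifts was not tested, and some of these fits also held fewer arrays or probe sets. After median centring 13 of the 23 probe sets had higher means in arrays labelled knockout, against 11 as deposited. Neither Anpep nor Cpxm2 changed direction in any alternative in which it was tested.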

Other observations

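A few listed genes below the threshold were picked after their values were seen, and all but Adm were lower in arrays labelled knockout. The lists as a whole were mixed. Means were higher for 14 ligand genes and lower for 19, with 25 and 25 for receptors and 30 and 22 for related peptidases. The ligand gene Adm differed by 1.34 ± 0.38 (SE, limma, adjusted p = 0.215), and its groups overlapped. Cxcl12, a chemokine that dipeptidyl peptidase 4 inactivates, read 5.02, 5.64 and 5.42 log2 in arrays labelled knockout and 6.02, 7.13 and 6.90 in controls. The groups did not overlap, and the difference of -1.32 ± 0.31 (SE) did not pass (limma, adjusted p = 0.133), though it did without control 1 (-1.65, adjusted p = 0.0215). The VIP receptor gene Vipr1 read 6.89, 6.79 and 6.82 in arrays labelled knockout and 7.87, 7.72 and 7.42 in controls. Its difference of -0.84 ± 0.14 did not pass (limma, adjusted p = 0.0545). Vipr1 passed after a further quantile normalization (-0.86, limma, adjusted p = 0.0390). It also passed above the median signal (limma, adjusted p = 0.0311) and with the trended robust prior (limma, adjusted p = 0.0326), and in no other fit. The glucagon receptor gene Gcgr differed by -0.93 ± 0.26 (limma, adjusted p = 0.201), with readings of 7.47, 6.63 and 7.55 in arrays labelled knockout and 8.33, 7.93 and 8.17 in controls. The carboxypeptidase gene Cpm differed by -0.73 ± 0.25 (limma, adjusted p = 0.293), with readings of 6.83, 7.06 and 6.67 in arrays labelled knockout and 7.97, 7.03 and 7.76 in controls, and its groups overlapped.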
